A study of Hordeum vulgare with 6 samples.

Results

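Barley has a family of small proteins with a phosphatidylethanolamine-binding protein (PEBP) domain, which includes the relatives of Arabidopsis FLOWERING LOCUS T (FT) and TERMINAL FLOWER1 (TFL1). The 11 family genes described here are those of the 40411 genes in the deposited table whose annotation names the family (Terminal flower, Flowering locus T or phosphatidylethanolamine-binding protein). By annotation, 4 were TFL1-like, 6 were FT-like and 1 was named only as a phosphatidylethanolamine-binding protein, while 0 were MFT-like. The family itself was chosen by earlier results on these same libraries, in which the genes annotated as Terminal flower 1 on chromosomes 2H and 4H had higher TPM in *msnsd* than in E934. The difference between genotypes in those 2 genes is therefore given as a description, with values and without a p-value.

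The libraries came from young panicles of 0.5 to 1 cm, taken between the glume primordium and lemma primordium stages, with 3 biological replicates of each genotype. E934 is a feed barley variety, labelled as wild type. The mutant *msnsd* (multiple stem nodes and spikes and dwarf) is a single line selected after E934 was treated with ethyl methane sulfonate and radioactive cobalt, so it can carry other mutations beside the one behind its phenotype. How many plants went into a library is not given in the sources used here. Expression is given as TPM (reads scaled to transcript length and to the library total), so that levels can be set side by side between genes but sequencing depth is unknown. Since panicles are mixed tissue, fewer cells that express a gene and less RNA per cell cannot be told apart.

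In flowering plants, FT is made in leaves, travels to the shoot apex and promotes the change to flowering together with 14-3-3 proteins and bZIP factors of the FD type. TFL1 binds the same partners and acts in the opposite direction, keeping the shoot or inflorescence meristem indeterminate. MFT, the remaining branch of the family, is best known from seed dormancy and germination.

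The tissue label was first set beside marker genes. All 10 genes annotated as knotted-type, which include homeobox genes that mark shoot and inflorescence meristems, had a TPM above 0 in every library. Their summed level was between 228 and 240.1 TPM in E934 and between 227 and 247 TPM in *msnsd*. Of the 9 tested, 0 were called by limma, while 3 had a higher *msnsd* level with an unadjusted p under 0.05, beside 5.58% of all genes tested, and 4 were higher without overlap, beside 8.73%. By the same 2 measures 0 were lower, beside 5.09% and 7.86%. Their log2 fold changes ran from -0.37 to 1.95, so the similar sums do not mean that each gene was alike. Their part in the family's values was not tested. Leaf genes (chlorophyll a-b binding proteins and the Rubisco small subunit) were present as well, with 30 of 36 above 0 in every library and 6 at 0 in at least 1 library. They summed to between 479 and 665 TPM in E934 and between 504 and 771 TPM in *msnsd*, so the genotypes overlapped. The 70 genes annotated as MADS-box, a group that holds the floral organ identity genes, summed to between 2143 and 2247 TPM in E934 and between 1837 and 1974 TPM in *msnsd*. Here the *msnsd* libraries lay below all E934 libraries, and 53 of the 70 genes were above 0 in every library.

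Replicate 1 of E934 was the lowest of its genotype in most of the tested family genes. It gave the lowest E934 value in 5 of the 9 family genes that have a single lowest E934 library, beside 35.7% of all genes tested. Results that rest on it are given with and without it.

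The genotypes were compared with limma on log2(TPM + 0.1) in genes with a mean of at least 0.1 TPM, and 9 of the 11 family genes passed this filter. A gene was called when its log2 fold change was at least 1.5 in size and its adjusted p, after Benjamini-Hochberg adjustment over all genes, was at most 0.05. Of the 9 genes, 1 was called as higher in *msnsd*, beside 0.0212% of all genes tested, and 0 were called as lower, beside 0.0273%. In 2 of the 9 every *msnsd* library lay above every E934 library, beside 8.73% of all genes tested, and in 0 every *msnsd* library lay below, beside 7.86%. These are the 2 genes whose values were already known, so nothing is read from the counts. The median log2 fold change was 0.14 over the 9 genes and -0.02 over all genes tested.

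**Figure D1:**
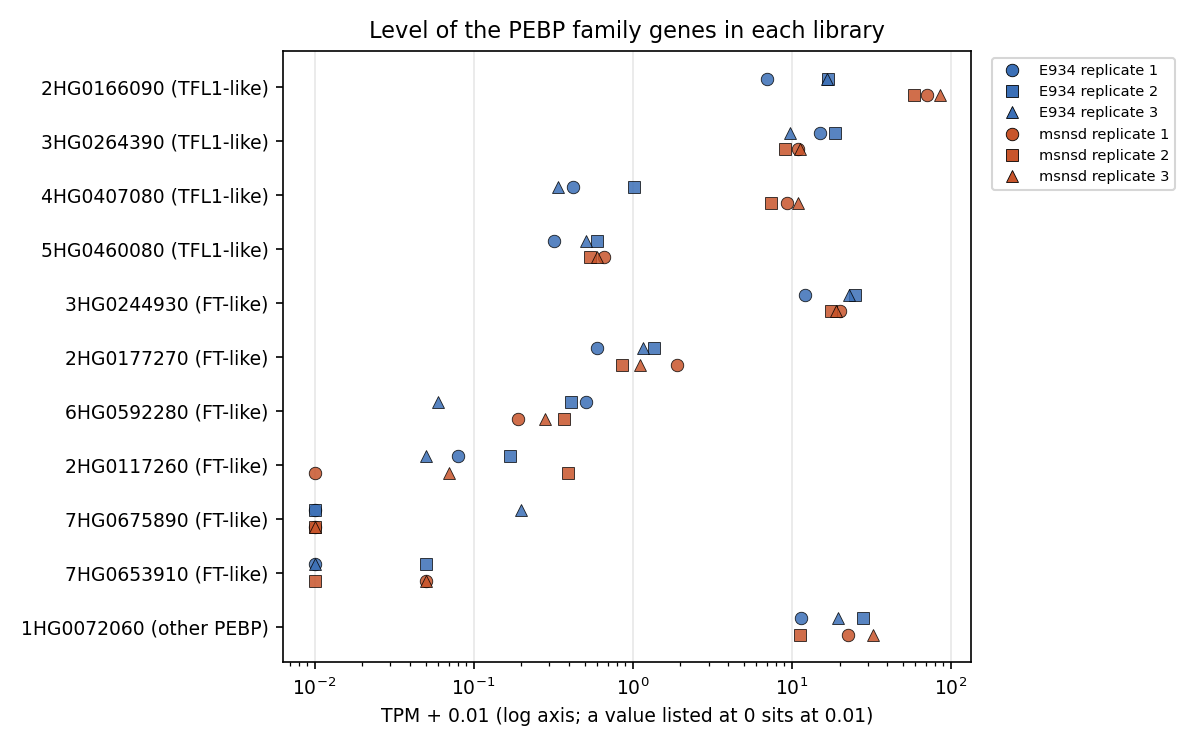
TPM of the 11 family genes in each of the 6 libraries, on a log axis after adding 0.01 so that values listed at 0 can be drawn. Blue points are E934, orange points are *msnsd*, and the shape gives the replicate. The genotypes separate in HORVU.MOREX.r3.2HG0166090 and HORVU.MOREX.r3.4HG0407080 and overlap in the other genes.

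Among the TFL1-like genes, the highest mean over all 6 libraries was that of HORVU.MOREX.r3.2HG0166090, annotated as Terminal flower 1 on chromosome 2H (Morex V3, 460537768 to 460538770). In E934 alone its mean was below that of HORVU.MOREX.r3.3HG0264390. The 2H gene had 6.97, 16.85 and 16.68 TPM across E934 replicates 1 to 3, against 71.15, 58.44 and 85.14 TPM across those of *msnsd*. The lowest *msnsd* library was thus well above the highest E934 library, and the lowest value of all was in E934 replicate 1. The mean was 13.5 ± 5.66 TPM for E934 and 71.6 ± 13.4 TPM for *msnsd* (SD, n = 3 each), 5.30 times as high. This is a log2 fold change of 2.49 with a standard error of 0.34, or 2.07 once E934 replicate 1 is left out.

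HORVU.MOREX.r3.4HG0407080, also annotated as Terminal flower 1, lies on chromosome 4H (577055627 to 577056705). It had 0.41, 1.01 and 0.33 TPM across E934 replicates 1 to 3, against 9.28, 7.42 and 10.90 TPM across those of *msnsd*. The gene was close to the lower end of the measured range in E934 and clearly present in all *msnsd* libraries. On average it stood at 0.583 ± 0.372 TPM and 9.20 ± 1.74 TPM (SD, n = 3 each), a ratio of 15.8. On the log2 scale the difference was 3.88 (standard error 0.38), and because the E934 level is low this size depends on the pseudocount, being 2.70 with a pseudocount of 1 and 4.11 with 0.01. It is the 1 family gene counted above as past the threshold, and since its difference was known beforehand that count is a description only. The gene did not stay past the threshold when any 1 of the 6 libraries was left out, with a log2 fold change of 3.73 without E934 replicate 1. In those fits 0 genes of the whole table were called, so the loss is not particular to this gene.

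The locus on 4H is annotated differently by RefSeq for the same assembly. The RefSeq model that overlaps HORVU.MOREX.r3.4HG0407080, LOC123447195, shares 1078 of its 1079 bp and is classed as a pseudogene. The Morex V3 annotation used by the authors classes the gene as protein coding with high confidence and gives it the PEBP domain. The 2H gene lies wholly within a RefSeq gene classed as protein coding (LOC123430253). Whether reads of the 2H and 4H genes could be exchanged in the quantification was not tested.

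Both genes kept the same order of libraries within *msnsd*, with replicate 3 highest and replicate 2 lowest. This order is not particular to them. The family genes HORVU.MOREX.r3.1HG0072060 and HORVU.MOREX.r3.3HG0264390, whose genotypes overlapped, had it too. The level of the 2H gene over that of the 4H gene was 7.67, 7.88 and 7.81 in the *msnsd* libraries. In E934 it was 17.0, 16.7 and 50.6, which varied far more, with the 4H gene at 1.01 TPM or less in each. The 2H gene was therefore the more abundant in all 6 libraries, by a smaller factor in *msnsd*.

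The other 2 genes annotated as TFL1-like had overlapping genotypes. HORVU.MOREX.r3.5HG0460080, a Terminal flower 1-like gene on chromosome 5H (288362873 to 288364222), had 0.31, 0.59 and 0.50 TPM across E934 replicates 1 to 3, against 0.65, 0.53 and 0.59 TPM across those of *msnsd*. It was low in every library, and the log2 fold change of 0.31 (standard error 0.36) had a limma adjusted p of 0.783. The 95% interval ran from -0.55 to 1.18 and does not reach the fold change threshold. Without E934 replicate 1, the lowest E934 library for this gene, the log2 fold change was 0.097.

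HORVU.MOREX.r3.3HG0264390 is annotated as Terminal flower 1 as well, but the data of the table go against that name. It is a low-confidence model of 312 bp on chromosome 3H (290658708 to 290659019) without the PEBP domain, and no RefSeq gene overlaps it. It had 14.97, 18.82 and 9.79 TPM across E934 replicates 1 to 3, against 10.97, 9.04 and 11.22 TPM across those of *msnsd*. The *msnsd* values all lay within or just below the E934 range, and the log2 fold change of -0.43 (standard error 0.24, 95% interval -0.99 to 0.13) had a limma adjusted p of 0.541.

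**Figure D2:**
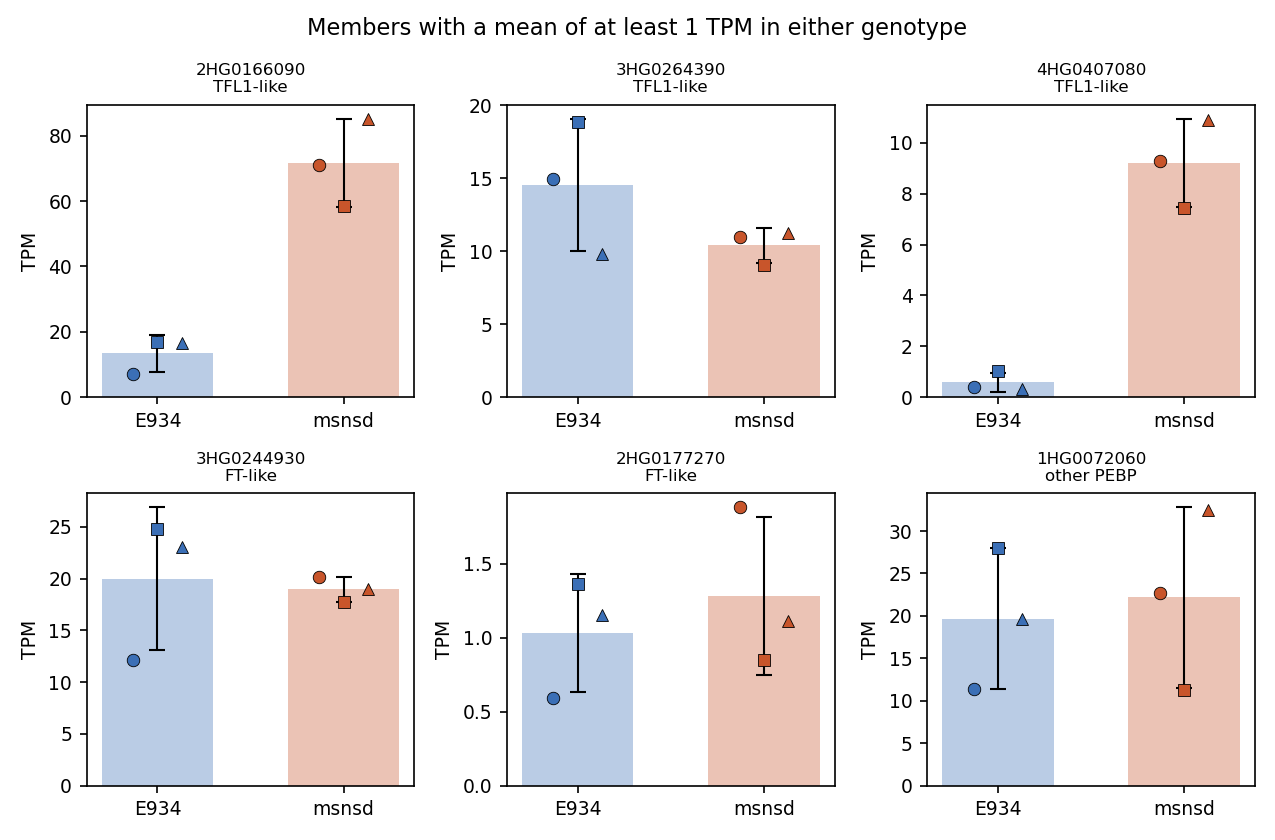
TPM of the 6 family genes with a mean of at least 1 TPM in either genotype. Bars are means of 3 libraries, error bars are SD, and points are single libraries (circle, square and triangle for replicates 1, 2 and 3). HORVU.MOREX.r3.2HG0166090 went from 13.5 to 71.6 TPM and HORVU.MOREX.r3.4HG0407080 from 0.583 to 9.20 TPM, while the genotypes overlap in the other 4 panels.

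The FT-like genes were represented mainly by HORVU.MOREX.r3.3HG0244930, annotated as Flowering locus T on chromosome 3H (101659993 to 101663495). It had 12.13, 24.84 and 23.06 TPM across E934 replicates 1 to 3, against 20.18, 17.76 and 19.04 TPM across those of *msnsd*. The *msnsd* libraries were close together and fell between the lowest and the highest E934 library. Means were 20.01 ± 6.88 and 19.0 ± 1.21 TPM (SD, n = 3 each). The log2 fold change was -0.01 with a 95% interval from -0.63 to 0.61 and an adjusted p of 0.993 from limma (standard error 0.26). Without E934 replicate 1, the lowest library, the log2 fold change was -0.33 and its limma adjusted p was 0.196. This 1 gene made up between 90.6% and 94.2% of the summed TPM of the FT-like genes in a library.

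The next FT-like gene was HORVU.MOREX.r3.2HG0177270 (Protein FLOWERING LOCUS T, chromosome 2H, 536988786 to 536991052). It had 0.59, 1.36 and 1.15 TPM across E934 replicates 1 to 3, against 1.88, 0.85 and 1.11 TPM across those of *msnsd*. The ranges overlapped, and the log2 fold change of 0.28 (standard error 0.42, 95% interval -0.71 to 1.28) had a limma adjusted p of 0.839. It was -0.04 without E934 replicate 1, and -0.01 without *msnsd* replicate 1, so its sign rests on single libraries. A pair of RefSeq genes (LOC123427073 and LOC123427075) cover this locus.

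The remaining 4 FT-like genes had less than 1 TPM in every library. HORVU.MOREX.r3.6HG0592280 (chromosome 6H, 340522220 to 340524516) ranged from 0.05 to 0.50 TPM in E934 and from 0.18 to 0.36 TPM in *msnsd*, and both a protein-coding gene and a lncRNA of RefSeq overlap it. HORVU.MOREX.r3.2HG0117260 (chromosome 2H, 57898113 to 57901089) reached 0.16 TPM in E934 and 0.38 TPM in *msnsd*, and was listed at 0 in *msnsd* replicate 1. Their log2 fold changes of 0.03 and 0.10 had 95% intervals from -1.46 to 1.51 and from -1.60 to 1.81, wider than those of the more abundant FT-like genes. Their limma adjusted p were 0.991 and 0.969.

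The 2 FT-like genes on chromosome 7H were below the filter. HORVU.MOREX.r3.7HG0653910 (Flowering locus T, 42284165 to 42285781) was listed at 0.04 TPM in 1 E934 library and in 2 *msnsd* libraries and at 0 in the others. HORVU.MOREX.r3.7HG0675890 (Flowering locus T-like 1, 146162436 to 146163836) was listed at 0.19 TPM in E934 replicate 3 and at 0 elsewhere. Both were thus at or near 0 in the panicle libraries, whereas the 3H FT gene had at least 12.13 TPM in each.

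The gene named only as a phosphatidylethanolamine-binding protein, HORVU.MOREX.r3.1HG0072060 (chromosome 1H, 457133181 to 457134028), had 11.44, 28.00 and 19.60 TPM across E934 replicates 1 to 3, against 22.72, 11.29 and 32.50 TPM across those of *msnsd*. Its libraries spread over nearly the same range in both genotypes. The log2 fold change of 0.14 (standard error 0.44, 95% interval -0.91 to 1.19) had a limma adjusted p of 0.934, and it was -0.21 without E934 replicate 1.

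**Figure D3:**
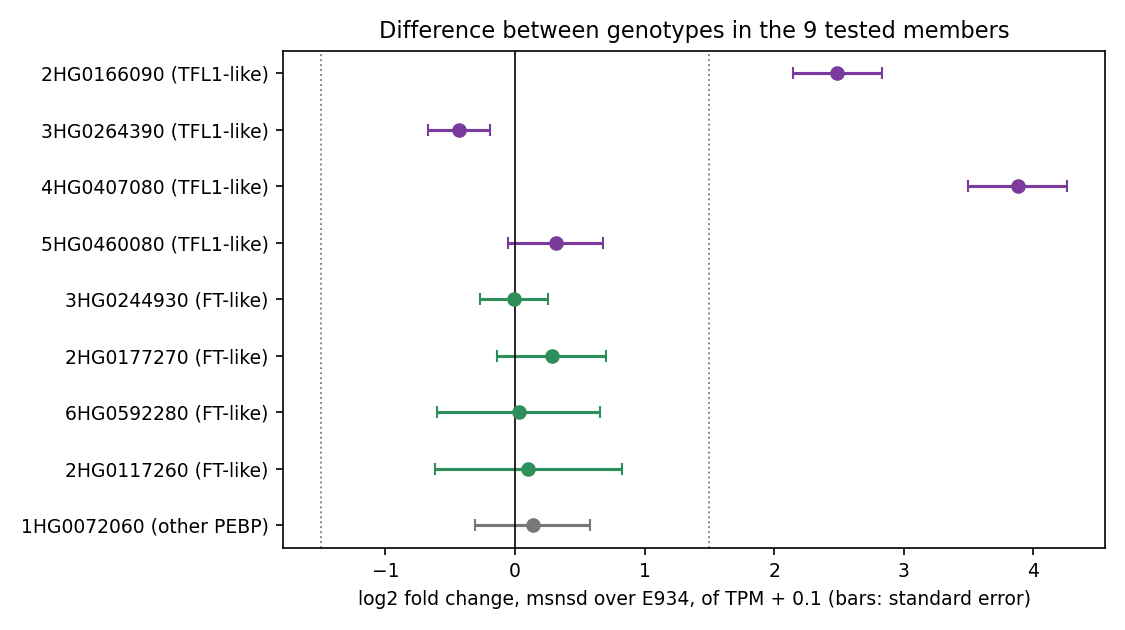
Log2 fold change of *msnsd* over E934 on TPM + 0.1 for the 9 tested family genes, with standard errors from limma. Dotted lines mark the fold change threshold of 1.5 in either direction. The 2H and 4H TFL1 genes, which were known beforehand to differ, stand at 2.49 and 3.88, and the other 7 lie between -0.43 and 0.31.

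Apart from the 2H and 4H TFL1 genes, 7 family genes were tested and 0 of them were called by limma. None had an unadjusted p under 0.05 (0 of 7), and their adjusted p lay between 0.541 and 0.993. The genotypes overlapped in each of these 7 genes. With 5.58% higher and 5.09% lower at an unadjusted p under 0.05 among all genes tested, and 8.73% above and 7.86% below without overlap, 7 genes are too few for these counts of 0 to set the family apart.

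The order of the family by level differed between genotypes. The 2H and 4H TFL1 genes were known beforehand to differ, so their change of rank is a description only. In E934 the highest means belonged to the 3H FT gene (20.01 TPM), the 1H gene (19.7 TPM), HORVU.MOREX.r3.3HG0264390 (14.5 TPM) and the 2H TFL1 gene (13.5 TPM). The library ranges of these 4 overlapped each other. Within each E934 library, however, the 3H FT gene and the 1H gene both lay above the 2H TFL1 gene. The order of the other pairs changed between libraries and is not resolved. In *msnsd* the 2H TFL1 gene was first at 71.6 TPM, and its lowest library exceeded the highest library of the 1H gene, 32.50 TPM. The 1H gene (22.2 TPM) and the 3H FT gene (19.0 TPM) followed with overlapping ranges. After them came HORVU.MOREX.r3.3HG0264390 (10.4 TPM) and the 4H TFL1 gene (9.20 TPM), whose ranges overlapped as well. Within each *msnsd* library HORVU.MOREX.r3.3HG0264390 lay above the 4H TFL1 gene.

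Summed over the 10 genes with the PEBP domain, the family reached 32.4, 73.3 and 61.6 TPM across E934 replicates 1 to 3, against 126, 97.0 and 149.7 TPM across those of *msnsd*. The genotypes did not overlap, and the sum includes the 2H and 4H TFL1 genes, whose difference was known beforehand. The TFL1-like share of this sum was 23.7%, 25.2% and 28.4% in E934 and 64.3%, 68.4% and 64.6% in *msnsd*. It leaves out HORVU.MOREX.r3.3HG0264390, which is annotated as Terminal flower 1 but lacks the domain. This share too includes the 2H and 4H TFL1 genes known beforehand to differ. The summed FT-like level was 21.5 ± 7.23 TPM for E934 and 20.7 ± 1.47 TPM for *msnsd* (SD, n = 3 each).

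A ratio within a library removes what its members share. The 2H TFL1 gene stood at 0.575, 0.678 and 0.723 times the 3H FT gene in E934, and at 3.53, 3.29 and 4.47 times in *msnsd*. In E934 replicate 1 both genes were low, at 6.97 and 12.13 TPM, and their ratio was close to that of the other E934 libraries. The FT gene was thus the more abundant of the pair in all E934 libraries and the less abundant in all *msnsd* libraries. Because the 2H gene was known beforehand to be higher in *msnsd*, this change of order restates that difference and is a description only.

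**Figure D4:**
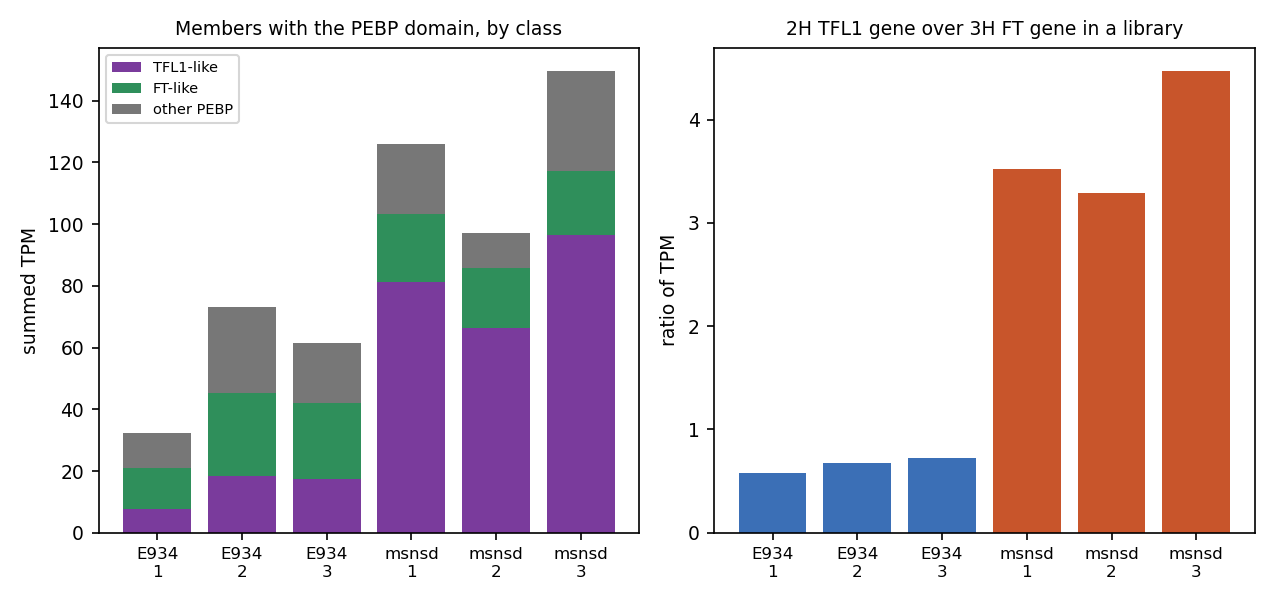
Left, summed TPM of the 10 genes with the PEBP domain in each library, stacked by class (TFL1-like, FT-like, other). Right, TPM of the 2H TFL1 gene divided by that of the 3H FT gene in the same library, between 0.575 and 0.723 in E934 (blue) and between 3.29 and 4.47 in *msnsd* (orange). Both panels include the 2H TFL1 gene, which was known beforehand to differ.

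Genes known from other plants to act with FT and TFL1 or after them were counted by annotation, from lists drawn up with earlier results of these data known. For the 14-3-3 proteins, which bind FT and TFL1, 0 of 7 tested genes were called by limma, with 1 at an unadjusted p under 0.05 and a higher level and 0 with a lower level. Their summed level was between 1603 and 1794 TPM in E934 and between 1644 and 1757 TPM in *msnsd*. For the bZIP factors, which include the FD type, 0 of 61 were called, with 6 higher and 5 lower at an unadjusted p under 0.05. These can be read against all genes tested, of which 5.58% were higher and 5.09% lower at that level.

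CONSTANS-like genes, some of which promote *FT* expression in response to day length, gave 0 calls among 30 tested. At an unadjusted p under 0.05, 3 were higher and 2 lower, and without overlap 6 were higher and 2 lower. MADS-box genes, some of which respond to FT and TFL1, gave 0 calls among 60 tested, and their smallest limma adjusted p was 0.061. At an unadjusted p under 0.05, 9 were higher and 12 lower, and without overlap 9 were higher and 13 lower. All genes tested gave 5.58% higher and 5.09% lower at that p, and 8.73% and 7.86% without overlap. The MADS-box counts lay above those shares in both directions. So did those of the bZIP factors, of which 6 were higher and 7 lower without overlap. The CONSTANS-like counts lay above them too, except for the 2 lower genes without overlap. Calls were rare among all genes (0.0212% higher, 0.0273% lower), so 0 calls does not show that a list was unchanged. The median log2 fold change was 0.05 for the 14-3-3 list, -0.05 for bZIP, -0.19 for CONSTANS-like and -0.11 for MADS-box, beside -0.02 over all genes tested. The lower summed MADS-box level given above moved with the higher TFL1 levels, and its part in them was not tested.

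The table names 2 genes after LEAFY, a regulator of floral meristem identity. HORVU.MOREX.r3.2HG0194240 (LEAFY-like protein, chromosome 2H) had 22.36, 17.37 and 21.06 TPM across E934 replicates 1 to 3, against 25.41, 31.64 and 29.51 TPM across those of *msnsd*. Its genotypes did not overlap, but the log2 fold change of 0.51 (standard error 0.13) had a limma adjusted p of 0.250 and was not called. HORVU.MOREX.r3.7HG0717280 (LEAFY protein, chromosome 7H, 508866734 to 508866991) is a much shorter model than the 2H one (609047428 to 609050643). Whether it is a complete gene was not tested. It had 23.71, 17.26 and 13.55 TPM across E934 replicates 1 to 3, against 19.37, 10.17 and 12.54 TPM across those of *msnsd*, with overlapping libraries and a limma adjusted p of 0.655.

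The surroundings of the 2H and 4H TFL1 genes were set beside the genes themselves, taking the 10 listed genes on each side. The 2H and 4H genes were known beforehand to differ, while neighbours were taken by position. That the TFL1 genes exceed them is therefore a description only. Around the 2H gene (458437445 to 461778772), 16 of 20 neighbours were tested and 0 were called. The median log2 fold change of the 16 was 0.16, with values between -0.31 and 1.11, and 1 of the 16 had a higher *msnsd* level with an unadjusted p under 0.05, a count near the 5.58% of all genes tested. Without overlap, 2 of the 16 were above, beside 8.73% of all genes tested, and 0 below, beside 7.86%. The next gene after the 2H gene, the low-confidence HORVU.MOREX.r3.2HG0166110, was 1 of these, with a log2 fold change of 1.01 and a limma adjusted p of 0.522. The gene just before the 2H gene was not tested. Around the 4H gene (576110213 to 577949569), 19 of 20 were tested, 0 were called, and the median was 0.05. The nearest neighbours of the 4H gene, a cysteine-tRNA ligase gene and a chaperonin gene, had log2 fold changes of -0.05 and 0.10.

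The 4H window also holds 2 genes annotated as Flowering-promoting factor 1-like, named after an Arabidopsis gene that hastens flowering. These genes were picked out after their values were seen. HORVU.MOREX.r3.4HG0407230 had 0.23, 0.62 and 0.97 TPM across E934 replicates 1 to 3, against 3.10, 0.91 and 2.55 TPM across those of *msnsd*, with a limma adjusted p of 0.390. HORVU.MOREX.r3.4HG0407270 had 1.99, 1.79 and 1.99 TPM across E934 replicates 1 to 3, against 5.74, 5.80 and 2.45 TPM across those of *msnsd*, with a limma adjusted p of 0.326. At an unadjusted p under 0.05 these were the only 2 of the 19 tested neighbours (0.0250 and 0.0132 from limma), beside 5.58% of all genes tested with a higher level, so the count is not far from that share. Only in the second did the genotypes not overlap.

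**Figure D5:**
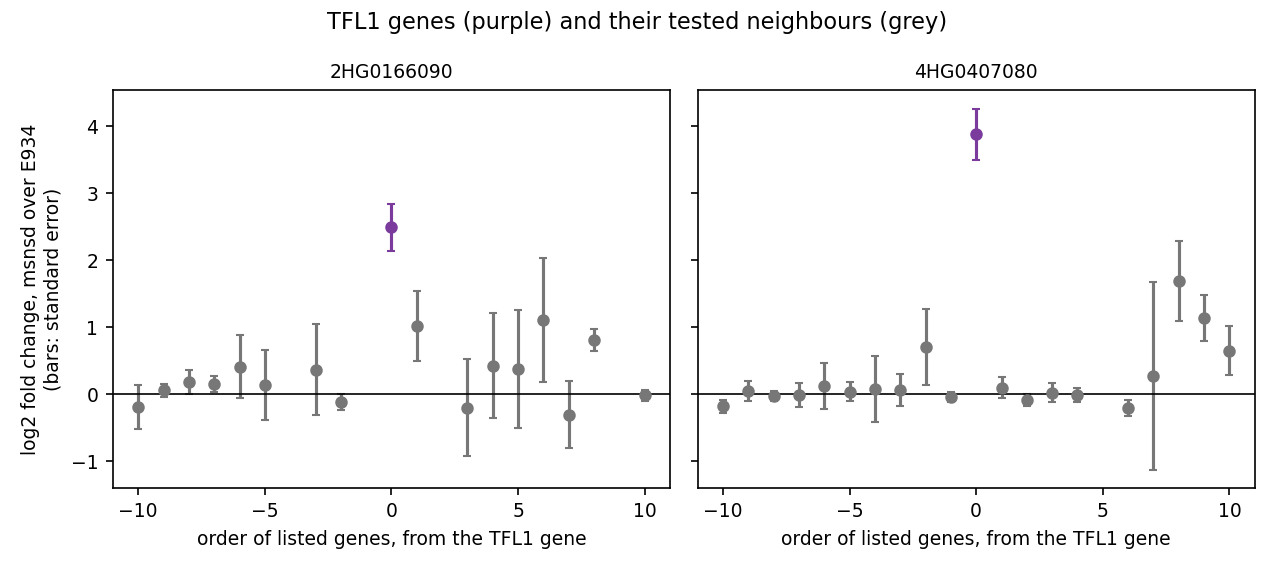
Log2 fold change of *msnsd* over E934 (points, with standard errors from limma) for the 2H and 4H TFL1 genes (purple) and their tested neighbours (grey), by order of the listed genes on the chromosome and not by distance. The TFL1 genes, which were known beforehand to differ, stand at 2.49 and 3.88, and their neighbours at no more than 1.11 and 1.69.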

How the data were processed

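RNA-seq was carried out on young panicles of E934 and *msnsd*, with 3 libraries of each grouped by the sample labels. The authors mapped clean reads to Morex V3, quantified them with Salmon 1.9.0 and deposited 1 TPM value per gene and library. TPM sums to between 999916 and 999936 per library, so depth and counting error are unknown, and the spread between replicates is the measure of error. The other deposited columns hold the authors' own DESeq2 comparison and were not used, and 0 library columns were left out. No gene of the table is at 0 in every library (0 of 40411).

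Genes with a mean of at least 0.1 TPM (32968) were fitted with limma 3.58.1 in R 4.3.3 (lmFit, then eBayes allowing the variance to follow the mean) on log2(TPM + 0.1), with genotype as the only term. The paper's count model was not run, because TPM are not counts. Thresholds followed the paper's definition. Python 3.11.15, pandas 2.3.3 and matplotlib 3.10.9 were used for the rest, and the fit was tested on simulated data. With 3 libraries against 3 an exact permutation test cannot give a p below 0.1, so none is printed. RefSeq models of the same assembly were matched by coordinates. Family genes, lists and tests were chosen with earlier results of these data known. Values in every library are printed for genes with a mean of at least 1 TPM in either genotype and for each TFL1-like gene. Genes with the most similar pattern were the 5 with the highest Pearson correlation with the 2H TFL1 gene. Alternatives were other pseudocounts, filters and scalings, no trend, a replicate block and leaving out each library. Promoter motifs and protein residues were not analysed here.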

Additional observations from a re-analysis of the deposited data

How the results depend on the processing

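The number of family genes called was 1, which is the 4H TFL1 gene whose difference was known beforehand, so the count describes the settings and supports nothing. It was 1 in 4 of 14 alternatives (a pseudocount of 1, a filter at a mean of 1 TPM, median-of-ratios scaling and quantile scaling). It was 0 with a pseudocount of 0.01, without a filter, without the mean-variance trend and with the replicate number as a block, and it ranged from 0 to 0 over the 6 fits without 1 library, in which 0 genes of the whole table were called. In those 10 alternatives HORVU.MOREX.r3.4HG0407080 kept its direction, and its log2 fold change ran from 2.70 to 4.29 over the 14. The log2 fold change of HORVU.MOREX.r3.2HG0166090 ran from 2.07 to 2.70. With the replicate block 0 genes of the whole table were called. Deviations of same-numbered libraries correlated across genes at 0.0186, -0.160 and 0.0730, so the numbers were not taken as pairs.

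Of the other 7 genes, 5 changed sign in at least 1 alternative, and in no alternative was any of the 7 called (smallest adjusted p from limma 0.196). Under other settings, the log2 fold change was 8.47e-05 for HORVU.MOREX.r3.3HG0244930 with median-of-ratios scaling, -0.0379 for HORVU.MOREX.r3.6HG0592280 with a pseudocount of 1 and -0.0034 with quantile scaling, and -0.44 for HORVU.MOREX.r3.2HG0117260 with a pseudocount of 0.01. Leaving out 1 library gave from -0.33 to 0.18 for HORVU.MOREX.r3.3HG0244930, from -0.0385 to 0.52 for HORVU.MOREX.r3.2HG0177270, from -0.60 to 0.40 for HORVU.MOREX.r3.6HG0592280, from -0.54 to 0.59 for HORVU.MOREX.r3.2HG0117260 and from -0.21 to 0.56 for HORVU.MOREX.r3.1HG0072060. The cause was not tested. The filter at a mean of 1 TPM gave no value for HORVU.MOREX.r3.5HG0460080, HORVU.MOREX.r3.6HG0592280 and HORVU.MOREX.r3.2HG0117260.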

Other observations

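The genes whose pattern over the 6 libraries was most like that of the 2H TFL1 gene were taken from 23077 genes with a mean of at least 1 TPM. The highest Pearson correlation of log2(TPM + 0.1) was 0.999 for HORVU.MOREX.r3.1HG0001150, annotated as Protein DJ-1. It was 0.999 for HORVU.MOREX.r3.7HG0680470 (succinyl-diaminopimelate desuccinylase), 0.997 for HORVU.MOREX.r3.1HG0016850 (an FBD-associated F-box protein), 0.997 for HORVU.MOREX.r3.4HG0379210 (a cytochrome P450 family protein) and 0.996 for HORVU.MOREX.r3.2HG0195480 (a low-confidence model named 1,4-alpha-glucan branching enzyme GlgB). The 6 points fall into 2 genotypes, share their libraries and include the low E934 replicate 1, so a high correlation says little beyond the difference between genotypes. The size of the difference was not alike, with log2 fold changes from 0.18 to 1.68 in these 5 genes beside 2.49 in the 2H gene, and 0 of the 5 were called by limma (adjusted p from 0.101 to 0.501). The 4H TFL1 gene, HORVU.MOREX.r3.4HG0407080, came 214th with a correlation of 0.950.

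Besides the 11 family genes, 1 gene of the table carries the PEBP domain, HORVU.MOREX.r3.7HG0732910, a low-confidence model on chromosome 7H (585872688 to 585874386) annotated as a putative homeobox protein. It had 0.17, 0.31 and 0.13 TPM across E934 replicates 1 to 3, against 0.19, 0.26 and 0.22 TPM across those of *msnsd*, with overlapping libraries.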
